A study of Rattus norvegicus with 12 samples.

Results

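Potassium channel subunits were read from 86 probes whose annotated gene symbol starts with Kcn, out of 22523 probes on a rat bead array. They stand for 81 of 13337 named genes, of which Kcna10, Kcnc2, Kcnh8 and Kcnk5 have more than 1 probe. A probe counts as detected on an array when its detection p, a comparison with the negative control beads of that array, is under 0.05. RNA came from 12 rat hearts of the outbred Sprague-Dawley stock, with 4 hearts under phasic systolic overload, 4 under phasic diastolic overload and 4 control hearts that received no loading. All 12 share the strain and the tissue, and the labels name no allele or drug. The labels leave out how long the load lasted, which chamber or wall layer was taken, the age of the animals and the slide of each array. They also do not state that every heart is a separate animal, so the p-values below measure the spread between these samples, part of which may be technical.

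Potassium channels let potassium leave the cardiac muscle cell and so end its action potential. The transient outward current, carried by Kv4 channels with the KChIP subunit Kcnip2, starts repolarization and is large in rodent ventricle. Delayed rectifiers continue it, inward rectifiers hold the resting potential, and two-pore-domain channels give a background leak that can respond to stretch, acid or lipids. Accessory subunits of the KCNE, KChIP and Kv beta families, and silent Kv subunits that form no channel alone, alter the gating of the pore subunits they join.

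Fewer Kcn probes than other named probes were detected in every heart. Of the 86 probes, 21 (24.4%) were detected in all 12 hearts, 16 in 4 to 11 hearts, 10 in 1 to 3 hearts and 39 (45.3%) in none. Among all 13793 probes with a gene symbol, 43.1% were detected in every heart and 37.1% in none. Over all 22523 probes, with or without a symbol, these shares were 34.6% and 45.4%. A detection in at least 4 of 12 hearts was required for a test. It was met by 37 Kcn probes (43%), against 54.2% of all probes with a symbol and 45.4% of all probes. A probe that was not detected may still have a transcript below the level at which the beads separate signal from background.

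**Figure D1:**
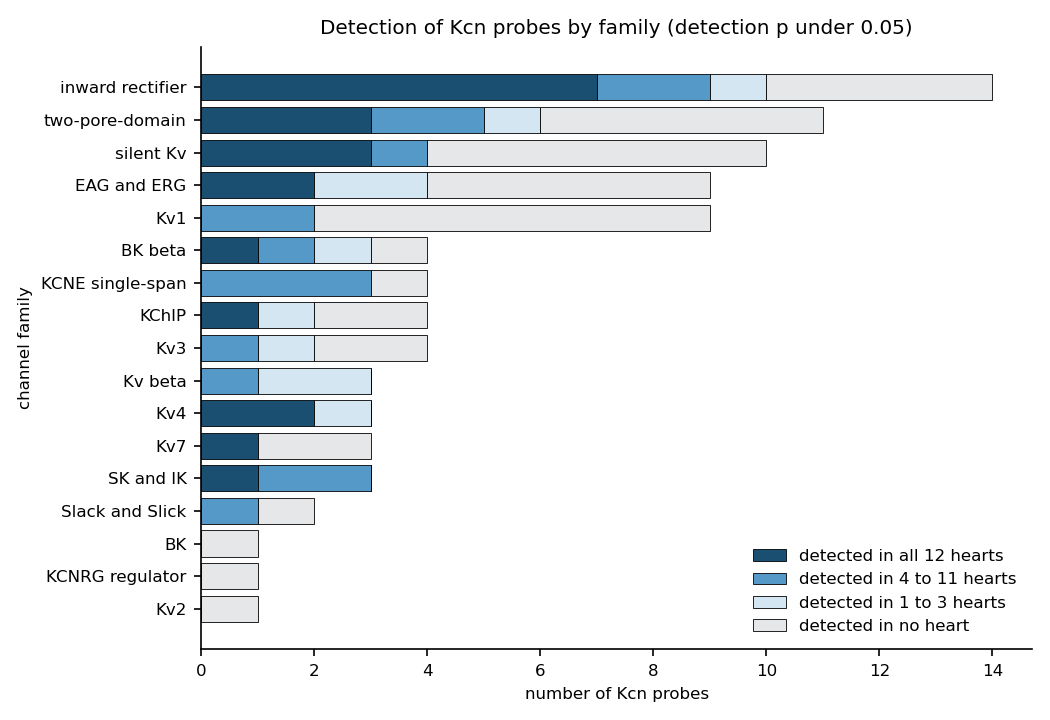
Number of Kcn probes (horizontal axis) in each channel family (vertical axis), split by the number of hearts in which the probe was detected at a detection p under 0.05. Inward rectifiers had the most probes detected in all 12 hearts, 7 of 14, while 7 of 9 Kv1 probes were detected in none.

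The pore subunits of the transient outward current were well covered, with Kcnd2 and Kcnd3 detected in all 12 hearts and Kcnd1 in 1. Of the 4 KChIP probes, Kcnip2 was detected in all 12, Kcnip3 in 1, and Kcnip1 and Kcnip4 in none. Of the 9 Kv1 probes, Kcna2 was detected in 5 hearts and 1 probe of Kcna10 in 9. The Kv1 probes of Kcna1, Kcna3, Kcna4, Kcna5, Kcna6 and Kcna7 and the other Kcna10 probe were detected in none. Kcna4 and Kcna5 encode pore subunits of the slow transient and the ultrarapid outward current. The Kv beta subunits Kcnab3, Kcnab1 and Kcnab2 were detected in 9, 3 and 1 hearts.

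Among delayed rectifier genes, Kcnh2, the pore of the rapid current, and Kcnq1, the pore of the slow current, were detected in all 12 hearts. The single-span KCNE subunits were detected in some hearts only, with Kcne3 in 8, Kcne1 in 7, Kcne4 in 5 and Kcne2 in none. Of the 9 probes of the EAG and ERG family, 1 probe of Kcnh8 also reached all 12 hearts, Kcnh3 reached 3, Kcnh6 reached 1, and Kcnh1, Kcnh4, Kcnh5, Kcnh7 and the other Kcnh8 probe reached none. Kcnq3 and Kcnq5, known best from neurons, were detected in none. The 2 probes of Kcna10, and those of Kcnh8, disagreed in detection, so their genes cannot be called from 1 probe.

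Inward rectifiers had the most probes detected throughout, 7 of 14. These were Kcnj11, a pore subunit of the ATP-sensitive channel, Kcnj12, Kcnj4 and Kcnj14 of the Kir2 group, Kcnj5 and Kcnj9 of the G-protein-gated group, and Kcnj13. Kcnj8, the other ATP-sensitive pore, was detected in 7 hearts and Kcnj3, a G-protein-gated subunit of atrial cells, in 4. Kcnj2, a main pore of the ventricular inward rectifier current, was detected in 1 heart. Kcnj1, Kcnj10, Kcnj15 and Kcnj16 were detected in none.

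The two-pore-domain probes of Kcnk2, Kcnk3 and Kcnk10 were detected in all 12 hearts, Kcnk1 in 10, Kcnk15 in 6 and Kcnk18 in 2, both under systolic overload. Both Kcnk5 probes and those of Kcnk9, Kcnk12 and Kcnk13 were detected in none. Of the silent Kv subunits, Kcng1, Kcng2 and Kcns3 reached all 12 hearts and Kcns1 reached 11, while Kcnf1, Kcng3, Kcng4, Kcns2, Kcnv1 and Kcnv2 reached none. The only Kv2 probe, for Kcnb2, was detected in none. Calcium-activated channels were represented by Kcnn3 in 12, Kcnn1 in 11 and Kcnn4 in 4 hearts, and by no detection of Kcnma1, the pore of the large-conductance channel. Its beta subunits Kcnmb2, Kcnmb4 and Kcnmb1 were detected in 12, 6 and 1 hearts and Kcnmb3 in none. Kcnc1 was detected in 8 hearts, 1 probe of Kcnc2 in 1 and its other 2 probes in none. Kcnt2 was detected in 4, and Kcnt1 and the channel regulator Kcnrg in none.

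Over the whole array, 9249 to 9931 probes were detected per heart, of which 28 to 35 were Kcn probes. The label of heart tissue was borne out by 11 of 11 probes of cardiomyocyte markers, all detected in every heart. Markers of neurons and glia were near background, with 1 of 6 probes tested and S100b, Snap25 and Sox10 undetected. In RNA from whole tissue, fewer cells of a type and less RNA per cell cannot be told apart.

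No Kcn probe passed the test in any comparison of the load groups. The test was limma's moderated test on normalized log2 intensity, fitted over 10234 probes with p-values adjusted by the Benjamini-Hochberg method. At an adjusted p under 0.05, 0 of 37 Kcn probes were called in systolic overload against control, against 0% of all tested probes. The counts were 0 of 37, against 0%, in diastolic overload against control, and 0 of 37, against 0%, in systolic against diastolic overload. A p that misses the threshold does not show that levels were equal. In each comparison, 35 of 37 Kcn probes (94.6%) had a 95% interval that excluded a 2-fold difference in normalized intensity either way. The share over all tested probes was 97.2%, 97.3% and 97.2%. The exceptions among Kcn probes were Kcnd2 and Kcne1, the members with the widest spread among hearts. Normalized intensity understates changes of dim probes, so a narrow interval near background does not exclude a 2-fold change in transcript.

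In systolic overload against control, 5 of 37 Kcn probes had an unadjusted p under 0.05 (13.5%), against 5.79% of all tested probes. Of these, 2 had higher means under systolic overload, Kcng1 and Kcnt2 (against 3.18% of all), and 3 had lower means, Kcnk2, Kcnh2 and Kcnn3 (against 2.62%). Kcnt2 entered the test mainly through the systolic group, with 3 of its 4 detected hearts there, so its place in this count is no support. Groups did not overlap for 3 Kcn probes, Kcng1, Kcnk2 and Kcnn3, against 3.5% of all tested probes. Of the 37 probes, 23 had a higher mean (62.2%, against 51.5% of all), and their median log2 difference was 0.06, against 0.0050 over all tested probes. Without diastolic overload 1, 7 Kcn probes had an unadjusted p under 0.05 (against 6.3% of all tested probes). Without control 4 the count was 3 (against 5.69%). The count was also 3 with the authors' processed values (against 5.65% of all tested probes) and with no background correction (against 5.66%). When arrays were scaled to a common median, it was 5 against 11.7% of all.

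In diastolic overload against control, 5 Kcn probes had an unadjusted p under 0.05, against 5.49% of all tested probes. Of these, 2 had higher means under diastolic overload, Kcnj4 and Kcng1 (against 2.42% of all), and 3 had lower ones, Kcnk2, Kcnj12 and Kcnj13 (against 3.07%). Groups did not overlap for Kcng1 and Kcnj4, against 2.78% of all tested probes. The median difference was 0.03, against −0.0025 over all probes, and 20 of 37 had a higher mean (54.1%, against 49.2%). The count of 5 was 6 without control 3 (against 5.81% of all tested probes). It was 3 without diastolic overload 4 (against 5.26%) and 2 without control 1 (against 6.28%). With median scaling it was 7, against 13.4% of all tested probes. Both overload groups were set against the same 4 control hearts, so a gene low or high in both is not seen independently.

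In systolic against diastolic overload, 7 Kcn probes had an unadjusted p under 0.05 (18.9%), against 6.32% of all tested probes. Means under systolic overload were higher for 5, Kcnt2, Kcnj12, Kcnj8, Kcnk3 and Kcnj13 (against 3.51% of all), and lower for 2, Kcnj4 and Kcnh2 (against 2.81%). Kcnt2 was detected in 3 systolic and 0 diastolic hearts and met the filter mainly through the systolic group. Its place among the higher probes is therefore no support. Groups did not overlap for Kcnh2 and Kcnj4, against 3.13% of all tested probes. With 1 heart left out the count ran from 3 to 7. It was 3 without systolic overload 1, 2 or 4, against 5.6%, 5.78% and 5.53% of all tested probes. Without diastolic overload 2 or 4 it was 4, against 6.12% and 6.76%. With median scaling it was 2, against 3.25% of all tested probes. The median difference was 0.01, equal to that of all probes at this rounding, and 19 of 37 had a higher mean (51.4%, against 52.2%).

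The sizes of these differences depended on the background correction. Of the 17 differences at an unadjusted p under 0.05, all 17 kept their sign with the authors' processed values, and 10 were more than 1.5 times smaller (median 1.62 times). With no background correction these counts were also 17 and 10. The least affected was Kcnk2, at −0.49 in systolic and −0.35 in diastolic overload minus control. The 10 belong to Kcnh2, Kcnj4, Kcnj13, Kcnj8, Kcnn3 and Kcnt2.

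**Figure D2:**
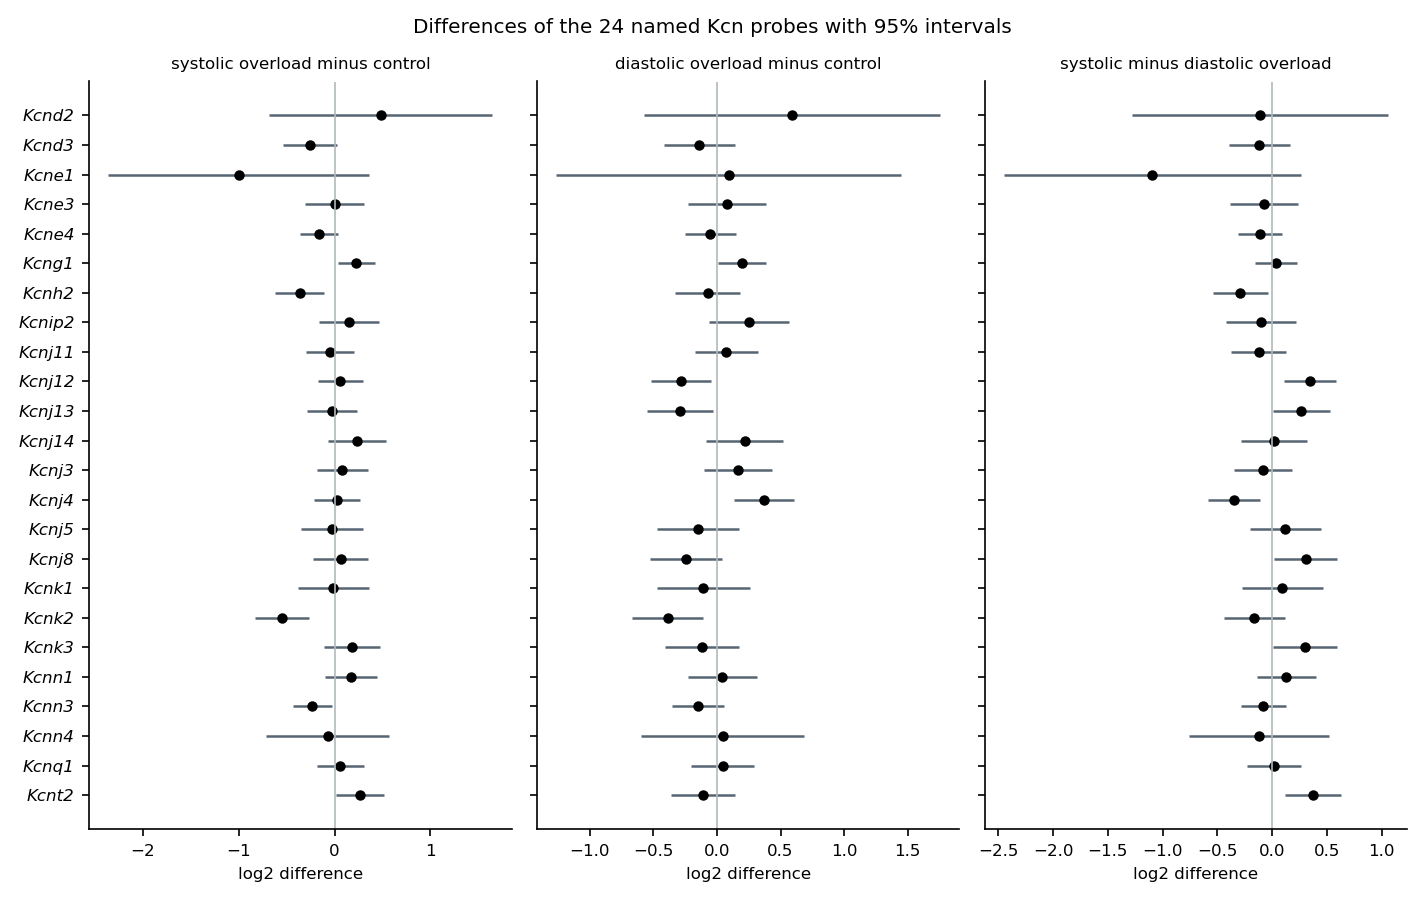
Difference in normalized log2 intensity (horizontal axis) of the 24 Kcn probes named by rule (vertical axis), in systolic overload minus control, diastolic overload minus control and systolic minus diastolic overload. Points are the fitted differences and lines their 95% intervals (limma, 4 hearts a group). The intervals of Kcnd2 and Kcne1 are the widest, and the Kcnk2 interval in the left panel runs from −0.83 to −0.27.

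Kcnd2, the Kv4.2 pore subunit of the transient outward current, varied widely between hearts of each group. It stood at 8.81, 8.83, 7.69 and 7.81 (normalized log2 intensity) in the systolic hearts. It stood at 8.19, 7.61, 8.54 and 9.25 in the diastolic hearts and at 7.29, 6.64, 9.56 and 7.73 in the control hearts. The control group held both the lowest and the highest heart, so all groups overlapped. The level ran over 2.92 log2 units, and 28 of the 10234 tested probes (0.274%) had a wider range. The log2 difference was 0.48 in systolic overload minus control (95% interval −0.69 to 1.65, limma adjusted p = 0.938) and 0.59 in diastolic overload minus control (−0.58 to 1.76, adjusted p = 0.993). Without control 2 these were 0.09 and 0.20, and without control 3 they were 1.06 and 1.17.

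Kcnd3, the Kv4.3 pore subunit, varied less. It stood at 6.15, 6.59, 6.21 and 6.10 in systolic hearts, at 6.09, 6.54, 6.44 and 6.45 in diastolic hearts and at 6.66, 6.41, 6.59 and 6.42 in control hearts. The groups overlapped, and the systolic minus control difference was −0.26 ± 0.13 (SE, limma adjusted p = 0.813). Kcnip2, the KChIP2 subunit that brings Kv4 pores to the membrane, stood at 12.65, 12.55, 12.32 and 12.05 in systolic hearts. It stood at 12.34, 12.38, 12.69 and 12.56 in diastolic hearts and at 12.27, 12.03, 12.54 and 12.12 in control hearts. These ranges overlapped, with differences of 0.15 and 0.25 from control (systolic and diastolic, adjusted p 0.926 and 0.927 by limma). With median scaling both turned, to −0.061 and −0.0027, and the systolic value ran from 0.066 without systolic overload 1 to 0.26 without systolic overload 4.

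**Figure D3:**
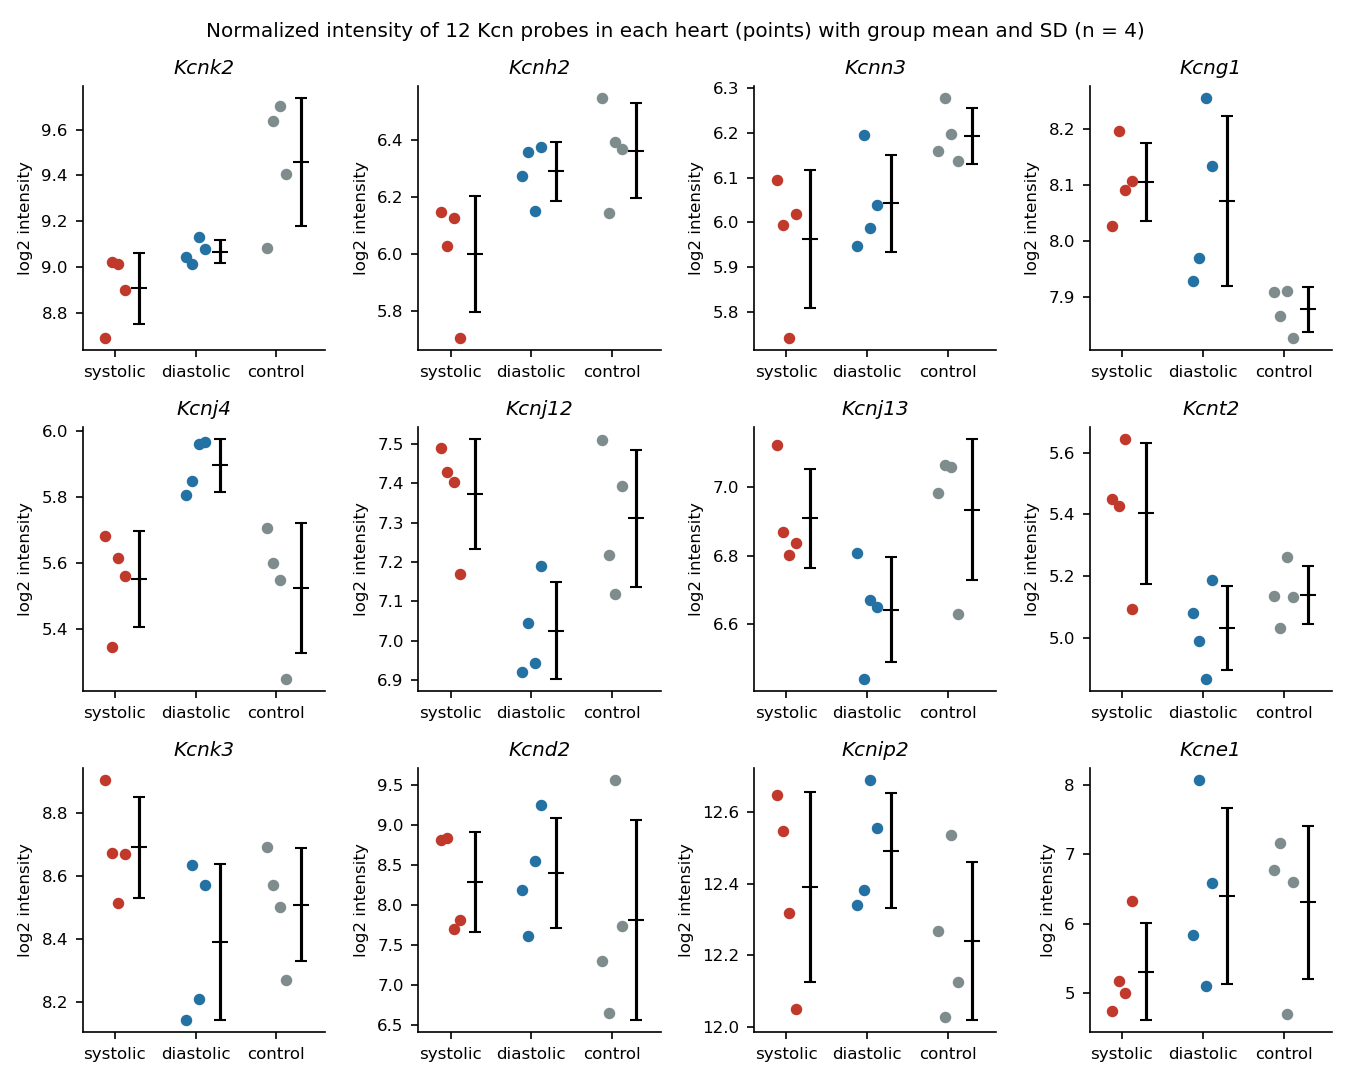
Normalized log2 intensity (vertical axis, a separate scale in each panel) of 12 Kcn probes in each heart (points), by group, with the group mean and SD beside them (n = 4). Systolic hearts lie below the control hearts for Kcnk2 and Kcnn3, diastolic hearts lie above the others for Kcnj4, and Kcnd2 and Kcne1 spread over more than 2 log2 units.

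The upstream sequences of Kcnd2, Kcnip2 and Kcne1 are shown because Kcnd2 and Kcnip2 varied together among hearts and Kcne1 had the widest range. They are the 250 bases before the annotated gene start from RefSeq, assembly GRCr8, given 5′ to 3′ on the strand of the gene. Capitals mark matches on either strand to ACANNTGT, a palindrome bound by Iroquois factors in flies, or to GGGCGG, the GC box. The Kcnd2 window lies at chr4:50742235-50742484 (plus strand), the Kcnip2 window at chr1:254613899-254614148 (minus strand) and the Kcne1 window at chr11:45077034-45077283 (minus strand).
Kcnd2: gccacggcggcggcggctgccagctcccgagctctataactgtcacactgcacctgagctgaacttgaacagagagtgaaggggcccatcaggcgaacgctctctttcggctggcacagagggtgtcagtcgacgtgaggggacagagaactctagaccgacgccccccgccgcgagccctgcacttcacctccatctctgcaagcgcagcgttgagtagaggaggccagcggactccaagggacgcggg
Kcnip2: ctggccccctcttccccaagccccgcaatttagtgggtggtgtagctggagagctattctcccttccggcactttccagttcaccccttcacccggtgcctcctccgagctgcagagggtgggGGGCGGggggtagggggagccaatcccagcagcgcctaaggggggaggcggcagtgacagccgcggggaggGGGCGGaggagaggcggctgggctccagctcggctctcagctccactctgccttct
Kcne1: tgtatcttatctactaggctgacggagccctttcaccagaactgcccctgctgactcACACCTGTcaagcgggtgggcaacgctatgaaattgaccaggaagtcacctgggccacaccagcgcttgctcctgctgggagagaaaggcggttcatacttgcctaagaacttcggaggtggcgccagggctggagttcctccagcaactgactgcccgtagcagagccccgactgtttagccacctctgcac
The Kcnd2 window held neither motif, at a GC content of 64.0%. The Kcnip2 window, at 68.0% GC, held 2 GC boxes, and the Kcne1 window, at 57.6%, held ACACCTGT at −193 to −186 from the start. Of 81 member genes, 56 matched the RefSeq table with 62 windows. ACANNTGT was in 3 of 62 Kcn windows (4.84%), those of Kcne1, Kcng2 and Kcnj4, and in 6.71% of 33469 windows of all genes. GGGCGG was in 48.4% of the Kcn windows and 30.5% of all. CANNTG, which every ACANNTGT match contains, was in 58.1% and 65.5%. A match is a string of letters and not a shown binding site.

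Kcnd2 was low in the hearts in which the Iroquois factors Irx5 and Irx3 were high. In mouse ventricle Irx5 is known to be higher toward the inner wall and to repress Kcnd2. Irx5 stood at 7.48, 6.87, 8.59 and 8.21 in systolic hearts, at 8.23, 8.95, 7.00 and 6.62 in diastolic hearts and at 9.23, 9.21, 6.47 and 8.76 in control hearts. Control 3 thus had the lowest Irx5 and the highest Kcnd2, and controls 1 and 2 had the highest Irx5 and the lowest Kcnd2. Over the 12 hearts Pearson's r was −0.95 and Spearman's rho −0.97. Each had a permutation p of 1e-05, the smallest that 100000 resamples give, and 0.00048 adjusted. The adjustment was within relations chosen with earlier results of these data known, so these p-values are not independent support. Without the 2 hearts farthest from the Irx5 median r was −0.91, and after centring each group on its mean it was −0.94. Of 10233 other tested probes, 4, with Irx5 among them, had an r with Kcnd2 at least this large in size.

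Kcnd2 and Irx3 gave r = −0.90 and rho = −0.88 (permutation p = 0.00013 and 0.00027, adjusted 0.00312 and 0.00648). Without the 2 farthest hearts r was −0.83, and group-centred it was −0.90. Kcnd2 and Hcn4, a pacemaker channel of the conduction system, gave r = −0.87 and rho = −0.84 (permutation p = 0.00028 and 0.00124, adjusted 0.00448 and 0.0198), with r of −0.81 without 2 hearts and −0.88 group-centred. Hcn4 was detected in 2 systolic, 2 diastolic and 3 control hearts, so its other values in this relation lie near background. The relation of Kcnd2 with Irx4, a ventricular factor, had r = −0.21 (permutation p = 0.517, adjusted 0.656). These, and the relations of Kcne1 and Kcnn4 below, belong to 48 relations between the 3 widest members and 16 probes of related genes. The related genes are partner proteins, transporters, Iroquois factors and Hcn4. After adjustment, 5 relations passed by both r and rho. Members and list were chosen with earlier results of these data known, which limits all of these p-values. The conduction marker list was tested in 3 of 5 probes, with Cntn2 and Isl1 undetected. Summed over all 5 probes, its level was 178 to 214.6 in systolic, 151.5 to 194.6 in diastolic and 181.4 to 312.3 in control hearts (intensity units). Tbx3, on the same list, stood at 5.75, 6.04, 5.51 and 5.55 in systolic hearts and at 4.86, 5.37, 5.12 and 5.21 in diastolic hearts. In control hearts Tbx3 stood at 5.14, 5.53, 5.82 and 5.82, lowest in controls 1 and 2, where Hcn4 was highest. The part of wall layer, chamber or conduction tissue in the Kcnd2 range was not tested.

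Within the family, Kcnd2 and Kcnip2 had r = 0.795 over the 12 hearts, given as a description with no test. Of 666 pairs of tested Kcn probes, 1 had r beyond 0.8 in size, Kcna10 probe 1 with Kcnip2 at 0.91, and the median r was 0.04. All points come from the same 12 arrays. Kcnip2 and Kcnd2 also had r of −0.67 and −0.48 with the raw median intensity of the array, whose part in these values was not tested.

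**Figure D4:**
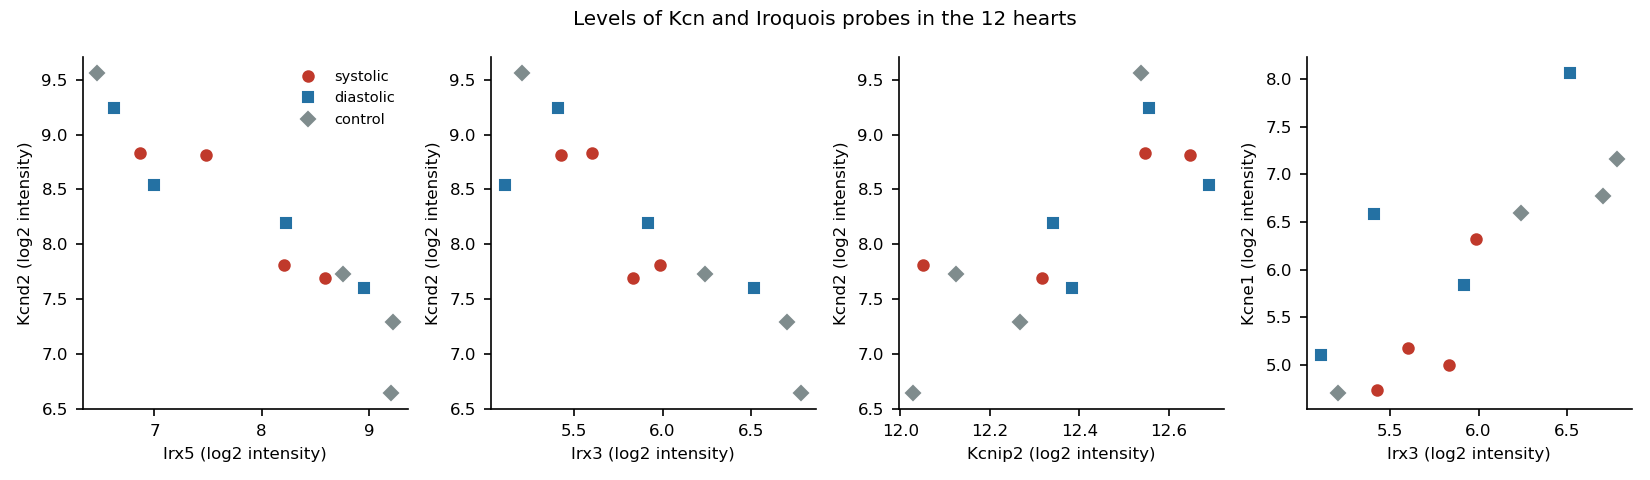
Normalized log2 intensity of Kcnd2 against Irx5, Irx3 and Kcnip2, and of Kcne1 against Irx3, with 1 point per heart and a marker for each group. Hearts with more Irx5 had less Kcnd2 (r = −0.95, n = 12), and hearts of all 3 groups are spread along the horizontal axis.

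Kcne1, the single-span subunit that joins Kcnq1 in the slow delayed rectifier, had the widest range of all members, 3.37 log2 units. It stood at 4.74, 5.18, 5.00 and 6.32 in systolic hearts, at 5.84, 8.07, 5.11 and 6.58 in diastolic hearts and at 6.77, 7.17, 4.70 and 6.60 in control hearts. It was detected in 1 systolic, 3 diastolic and 3 control hearts. All groups overlapped, systolic with control hearts only through control 3, the lowest of all. The differences were −1.0 ± 0.63 in systolic minus control (SE, 95% interval −2.36 to 0.36, limma adjusted p = 0.85) and 0.09 in diastolic minus control (adjusted p = 0.998). Systolic minus diastolic overload was −1.09 (adjusted p = 0.873), with −0.54 without diastolic overload 2 and −1.54 without diastolic overload 3. With median scaling the diastolic minus control value was −0.063. Without 1 heart the systolic minus control value ran from −1.54 (without control 3) to −0.71 (without control 2). With the authors' processed values the systolic differences were −0.52 from control and −0.63 from diastolic hearts.

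Kcne1 and Irx3 were high in the same hearts, with r = 0.79 and rho = 0.80 (permutation p = 0.00275 and 0.00278, adjusted 0.0264 and 0.0334). Without the 2 farthest hearts r was 0.77, and group-centred it was 0.88. For Kcne1 and Irx5 r was 0.64 (permutation p = 0.026, adjusted 0.138), which did not pass. Irx3 stood at 5.43, 5.60, 5.84 and 5.98 in systolic hearts, at 5.92, 6.51, 5.12 and 5.41 in diastolic hearts and at 6.70, 6.78, 5.21 and 6.24 in control hearts. Diastolic overload 2 had the highest Kcne1 and the third highest Irx3.

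With Irx5 as a covariate, an alternative chosen after seeing the data, 0 Kcn probes were called. The Kcnd2 differences were −0.02 in systolic minus control, 0.02 in diastolic minus control and −0.04 in systolic minus diastolic overload. The Kcne1 differences were −0.56, 0.59 and −1.15 in these comparisons. Irx5 and Kcnd2 were already closely related in these same hearts. The small Kcnd2 differences largely follow from that relation and are no separate support for it. For Kcnk2 the systolic minus control difference was −0.59 (limma adjusted p = 0.525).

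The other KCNE subunits varied less. Kcne3 stood at 5.21, 5.00, 5.39 and 5.72 in systolic hearts, at 5.55, 5.42, 5.49 and 5.15 in diastolic hearts and at 5.23, 5.48, 5.30 and 5.29 in control hearts. Kcne4, an inhibitory partner of several Kv pores, stood at 5.32, 5.13, 5.02 and 5.05 in systolic hearts, at 5.08, 5.36, 5.23 and 5.30 in diastolic hearts and at 5.23, 5.29, 5.35 and 5.32 in control hearts. Both were near background, with groups that overlapped and systolic minus control differences of 0.0018 (−0.032 with median scaling) and −0.17.

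Kcnh2, the ERG1 pore of the rapid delayed rectifier, had its lowest mean under systolic overload. It stood at 6.15, 6.03, 6.12 and 5.70 in systolic hearts, at 6.27, 6.36, 6.15 and 6.38 in diastolic hearts and at 6.55, 6.14, 6.39 and 6.37 in control hearts. Every systolic heart lay below every diastolic heart, by less than 0.01 at the closest pair, and the highest systolic heart lay just above the lowest control. The mean was 6.00 ± 0.20 in systolic hearts and 6.36 ± 0.17 in control hearts (SD, n = 4 each), a difference of −0.36 ± 0.12 (SE, limma adjusted p = 0.807). Systolic minus diastolic overload was −0.29 (limma adjusted p = 0.74), and without systolic overload 4, the lowest heart, the difference from control was −0.26 and that from diastolic hearts −0.19.

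Kcnq1, the KvLQT1 pore of the slow delayed rectifier, stood at 9.22, 9.48, 9.18 and 9.36 in systolic hearts. It stood at 9.06, 9.33, 9.41 and 9.38 in diastolic hearts and at 8.99, 9.30, 9.35 and 9.36 in control hearts. The groups overlapped, and control 1 stood below the other controls. The differences from control were 0.06 (systolic) and 0.05 (diastolic), each with a 95% interval within ±0.31. With median scaling they were −0.16 and −0.19.

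Among Kir2 inward rectifiers, which set the resting potential, the means of the load groups lay in opposite order for Kcnj12 and Kcnj4. Kcnj12, the Kir2.2 pore, stood at 7.49, 7.43, 7.40 and 7.17 in systolic hearts, at 6.92, 7.04, 6.94 and 7.19 in diastolic hearts and at 7.51, 7.22, 7.12 and 7.39 in control hearts. Diastolic overload 4 lay just above the lowest systolic heart, and the other diastolic hearts lay below all systolic and control hearts. The mean was 7.37 ± 0.14 in systolic and 7.02 ± 0.12 in diastolic hearts (SD, n = 4 each), a difference of 0.35 ± 0.11 (SE, limma adjusted p = 0.697). Diastolic overload minus control was −0.29 (limma adjusted p = 0.879).

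Kcnj4, the Kir2.3 pore, stood at 5.68, 5.34, 5.61 and 5.56 in systolic hearts, at 5.81, 5.85, 5.96 and 5.96 in diastolic hearts and at 5.70, 5.60, 5.55 and 5.25 in control hearts. Every diastolic heart lay above every other heart. Diastolic overload minus control was 0.37 ± 0.11 (SE, limma adjusted p = 0.75), and systolic minus diastolic overload was −0.34 ± 0.11 (limma adjusted p = 0.699). With the authors' processed values these were 0.17 and −0.16, and with no background correction 0.17 and −0.15. Kcnj14, the Kir2.4 pore, stood at 6.25, 5.88, 5.68 and 6.06 in systolic hearts, at 5.81, 6.16, 5.92 and 5.90 in diastolic hearts and at 5.79, 6.02, 5.48 and 5.64 in control hearts. Its groups overlapped, with differences of 0.23 and 0.22 from control in systolic and diastolic hearts (adjusted p = 0.84 and 0.933).

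Kcnj13, the Kir7.1 pore best known from epithelia, stood at 7.12, 6.87, 6.80 and 6.84 in systolic hearts, at 6.81, 6.44, 6.67 and 6.65 in diastolic hearts and at 6.98, 7.06, 7.06 and 6.63 in control hearts. Diastolic hearts lay lowest on average but overlapped the others. Diastolic overload minus control was −0.29 ± 0.12 (SE, limma adjusted p = 0.879), and systolic minus diastolic overload was 0.27 (limma adjusted p = 0.779).

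Of the ATP-sensitive pores, which open when energy runs low, Kcnj11 stood at 8.07, 8.29, 8.10 and 7.93 in systolic hearts, at 7.97, 8.28, 8.40 and 8.23 in diastolic hearts and at 8.17, 8.02, 8.34 and 8.04 in control hearts. The groups overlapped, with a difference of at most 0.12 in size in any comparison. Kcnj8, the Kir6.1 pore of vascular and other cells, stood at 5.32, 5.44, 5.19 and 5.52 in systolic hearts, at 4.99, 4.83, 5.41 and 5.02 in diastolic hearts and at 5.25, 5.08, 5.46 and 5.42 in control hearts. It was detected in 3 systolic, 1 diastolic and 3 control hearts, and systolic minus diastolic overload was 0.31 ± 0.13 (SE, limma adjusted p = 0.757).

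The G-protein-gated pair of atrial muscle, Kcnj3 and Kcnj5, forms the current opened by acetylcholine. Kcnj3 stood at 5.18, 4.91, 5.33 and 5.23 in systolic hearts, at 5.21, 5.01, 5.31 and 5.45 in diastolic hearts and at 5.03, 4.93, 5.04 and 5.31 in control hearts. Kcnj5 stood at 7.56, 7.72, 7.57 and 7.53 in systolic hearts, at 7.19, 7.74, 7.48 and 7.48 in diastolic hearts and at 7.47, 7.43, 7.52 and 8.08 in control hearts. Both overlapped between groups, and control 4 had the highest Kcnj5 of all hearts. The 2 atrial markers tested, of 2 on the array, were Nppa and Myl7. They summed to 2056 to 10110 in systolic, 2477 to 27030 in diastolic and 5837 to 22370 in control hearts (intensity units). The sum hides that they ranked the hearts differently. Nppa was highest in diastolic overload 2 (14.46, with Myl7 at 12.15), and Myl7 was highest in control 3 (12.24, with Nppa at 11.02). The part of either marker in the Kcnj3 and Kcnj5 values was not tested.

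Kcnk2, the TREK-1 leak channel, which is known to open on membrane stretch, had the smallest p of all members in systolic overload against control. It stood at 8.69, 9.02, 9.02 and 8.90 in systolic hearts, at 9.05, 9.01, 9.13 and 9.08 in diastolic hearts and at 9.08, 9.64, 9.70 and 9.41 in control hearts. Every systolic heart lay below every control heart, while control 1 lay among the diastolic hearts. The mean was 8.91 ± 0.16 in systolic hearts, 9.07 ± 0.05 in diastolic hearts and 9.46 ± 0.28 in control hearts (SD, n = 4 each). Systolic overload minus control was −0.55 ± 0.13 (SE, 95% interval −0.83 to −0.27, limma adjusted p = 0.517), or 0.683-fold, and the p ranked 19 of 10234. Diastolic overload minus control was −0.39 ± 0.13 (limma adjusted p = 0.795), and systolic minus diastolic overload was −0.16 (adjusted p = 0.952). In 21 other settings the systolic minus control value ran from −0.79 to −0.47, with adjusted p of 0.333 to 0.957.

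Kcnk3, the acid-sensitive TASK-1 leak channel, stood at 8.90, 8.67, 8.52 and 8.67 in systolic hearts, at 8.14, 8.63, 8.21 and 8.57 in diastolic hearts and at 8.69, 8.57, 8.50 and 8.27 in control hearts. Systolic minus diastolic overload was 0.30 ± 0.14 (SE, limma adjusted p = 0.779), with overlapping groups. Kcnk1, the TWIK-1 channel, stood at 5.27, 5.91, 5.81 and 5.18 in systolic hearts, at 5.58, 5.14, 5.43 and 5.64 in diastolic hearts and at 5.71, 5.66, 5.42 and 5.43 in control hearts. Its groups overlapped and its differences were at most 0.11 in size.

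Kcng1, a silent Kv6 subunit, had higher values in overloaded hearts of both kinds. It stood at 8.03, 8.20, 8.09 and 8.11 in systolic hearts, at 7.93, 7.97, 8.26 and 8.13 in diastolic hearts and at 7.91, 7.87, 7.91 and 7.83 in control hearts. All 8 overloaded hearts lay above all 4 control hearts. Systolic minus control was 0.23 ± 0.09 (SE, limma adjusted p = 0.813) and diastolic minus control 0.19 ± 0.09 (limma adjusted p = 0.902). When arrays were scaled to a common median these were −0.0028 and −0.031, beside all-probe medians of −0.17 and −0.18.

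Kcnn3, a small-conductance calcium-activated channel, stood at 6.10, 5.99, 5.74 and 6.02 in systolic hearts, at 5.95, 6.20, 5.99 and 6.04 in diastolic hearts and at 6.16, 6.28, 6.20 and 6.14 in control hearts. Every systolic heart lay below every control heart, with a difference of −0.23 ± 0.09 (SE, limma adjusted p = 0.813). Kcnn1, of the same group, stood at 5.65, 5.53, 5.64 and 5.45 in systolic hearts, at 5.34, 5.40, 5.66 and 5.34 in diastolic hearts and at 5.33, 5.42, 5.72 and 5.11 in control hearts. Its groups overlapped, with a systolic minus control difference of 0.17 (adjusted p = 0.891).

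Kcnn4, the intermediate-conductance channel of lymphocytes and other non-muscle cells, stood at 4.70, 5.19, 5.55 and 4.88 in systolic hearts. It stood at 6.30, 4.78, 4.73 and 4.97 in diastolic hearts and at 5.24, 5.10, 4.98 and 5.29 in control hearts. Diastolic overload 1 stood far above the others, and the range of 1.60 log2 units was the third widest of the members. The lymphocyte marker list has 5 probes, of which 3 were tested and Ms4a1 was undetected. All 5 together summed to 179.5 to 252.1 in systolic, 240.2 to 366.3 in diastolic and 200.5 to 241 in control hearts (intensity units). This sum includes background signal of undetected probes, and its part in the Kcnn4 value was not tested. Across hearts Kcnn4 followed Atp1b3, a beta subunit of the sodium pump, with r = 0.77 and rho = 0.78 (permutation p = 0.00107 and 0.00467, adjusted 0.0128 and 0.0448). Without the 2 farthest hearts r was 0.68, and group-centred it was 0.79. Kcnn4 was detected in only 1 systolic, 1 diastolic and 2 control hearts, so most of its values in this relation lie near background.

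Kcnt2, the sodium-activated Slick channel, stood at 5.45, 5.43, 5.64 and 5.09 in systolic hearts, at 5.08, 4.99, 4.87 and 5.19 in diastolic hearts and at 5.13, 5.03, 5.26 and 5.13 in control hearts. It was detected in 3 systolic, 0 diastolic and 1 control hearts. It met the requirement of 4 detected hearts mainly through the systolic group, and it stayed among the tested probes in 8 of the 12 fits that left out 1 heart. Groups overlapped, since systolic overload 4 lay below diastolic overload 4. It was not well above background in any diastolic heart, so only a bound on the means of these hearts can be given, at least 1.09-fold higher in systolic hearts, which leaves out the spread between hearts. That bound sets the systolic mean against the lowest detected signal of each diastolic array, and the measured difference was 0.37 ± 0.12 (SE, limma adjusted p = 0.697). Systolic minus control was 0.26 (limma adjusted p = 0.813).

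The naming rule took out the 5 Kcn probes with the smallest p in each comparison, which largely fixes what the rest show. Each of the other 13 tested Kcn probes had an unadjusted p above 0.05 in every comparison. In systolic minus control they ran from −0.09 to 0.23, with 10 higher and 3 lower. In diastolic minus control they ran from −0.12 to 0.27, with 8 higher and 5 lower, and in systolic minus diastolic overload from −0.14 to 0.18, with 8 higher and 5 lower. Their smallest unadjusted p values in these comparisons were 0.0539, 0.0938 and 0.181 (limma). Over all tested probes, means were higher for 51.5%, 49.2% and 52.2%. Between hearts of 1 group, the median SD was 0.187 for the 37 Kcn probes and 0.187 for all tested probes, and 6 Kcn probes (16.2%, against 14.5% of all) ranged over more than 1 log2 unit across the 12 hearts.

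A list of 32 genes related to these channels, made up of partner proteins, potassium transporters, the Iroquois factors and the pacemaker channel Hcn4, had 16 probes tested for 15 genes, and 0 were called in any comparison by limma. An unadjusted p under 0.05 was found for 1 of 16 probes in each (6.25%), near the share of all tested probes (5.79%, 5.49% and 6.32%). In systolic minus control this was Irx4 (−0.32, limma adjusted p = 0.813), which was also lower in systolic than in diastolic hearts on average (−0.29, limma adjusted p = 0.765). In diastolic minus control it was Hcn4 (−1.25, 95% interval −2.45 to −0.06, limma adjusted p = 0.894). Hcn4 was detected in 2 diastolic and 3 control hearts.

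The 16 probes of this list had lower means than control in 14 of 16 under systolic and 14 of 16 under diastolic overload, with medians of −0.07 and −0.11, beside medians of 0.0050 and −0.0025 over all tested probes. Higher means made up 12.5% of the list in each comparison, against 51.5% and 49.2% of all tested probes. Both counts use the same 4 control hearts, so they are not independent. Irx4 stood at 8.52, 8.62, 8.48 and 8.31 in systolic hearts, at 9.07, 8.64, 8.86 and 8.52 in diastolic hearts and at 8.61, 8.99, 8.72 and 8.88 in control hearts. Hcn4 stood at 4.76, 4.65, 6.13 and 6.16 in systolic hearts, at 6.03, 5.33, 4.72 and 4.71 in diastolic hearts and at 7.48, 7.08, 4.75 and 6.50 in control hearts. Both genes overlapped between groups, and Hcn4 was high in the control hearts in which Kcnd2 was low. Abcc9, a regulatory subunit of ATP-sensitive channels, differed by −0.13 in diastolic minus control (adjusted p = 0.927), and Slc12a4, a potassium chloride cotransporter, by −0.18 in systolic minus diastolic overload (adjusted p = 0.878).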

How the data were processed

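RNA of 12 hearts was measured on bead arrays, and depth is set by the array. The deposited table gives a non-normalized intensity per probe and array, per the file headers, and a detection p-value in steps of 1 in 825. A second deposited table holds intensity values that, from the values, were quantile normalized. The software of either table is not stated in the files or labels. Probes were named from the platform annotation (13793 of 22523 have a symbol).

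From the intensities, limma 3.58.1 (R 4.3.3) corrected background and normalized arrays (neqc, offset 16). Probes detected on at least 4 arrays were tested, 10234 in all. One mean per group was fitted to the 12 arrays, with Benjamini-Hochberg adjustment over all tested probes of a comparison. A difference is in normalized log2 intensity and understates changes of dim probes. A bound uses the lowest detected signal of each array.

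Named with values were tested probes of a cardiac channel list, the 5 smallest p in each comparison, the 3 widest ranges, probes detected in all hearts of 1 group and none of another, and 2 related genes per comparison. The members, lists and this rule were chosen with earlier results of these data known. Correlations used 100000 resamples (Python 3.11.15, scipy 1.17.1). The code was tested on simulated data. Alternatives covered normalization, background, filters, weights, a replicate block and leaving out each heart. The slide, which is not given, could not be used as a block.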

Additional observations from a re-analysis of the deposited data

Results flagged for a closer look

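In a group of 4 hearts, a heart was singled out when its gap to the nearest other was above Dixon's 95% critical value for the share of the group's range. Of 72 groups checked for the 24 named Kcn probes, 4 held such a heart, and chance gives about 1 in 20, or 3.6. Kcnj5, a G-protein-gated pore, stood at 7.72 in systolic overload 2, with the other systolic hearts at 7.53 to 7.57. It stood at 8.08 in control 4, with the other controls at 7.43 to 7.52. Kcnn4, the intermediate-conductance channel, stood at 6.30 in diastolic overload 1, with the other diastolic hearts at 4.73 to 4.97. Kcnq1, the slow delayed rectifier pore, stood at 8.99 in control 1, with the other controls at 9.30 to 9.36.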

How the results depend on the processing

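No Kcn probe and no other probe was called in any of 21 alternative settings, in any of the 3 comparisons (limma, adjusted p under 0.05). Precision rests on 4 hearts a group. The median SD between hearts, 0.187, was 0.103 with the authors' processed values, 0.101 with no background correction, 0.145 with no filter and 0.171 for probes detected on all 12 arrays, and with 1 heart left out it ran from 0.173 to 0.197. The number of Kcn probes detected, 37, was 22 at a detection p under 0.01 on at least 4 arrays and 21 on all 12. With median scaling the Kcn medians were −0.051 and −0.088 against control in systolic and diastolic hearts, which is 0.12 and 0.10 above the all-probe medians, and 12 of 72 named differences changed sign. With 1 heart left out, Kcn medians ran from 0.03 to 0.06, from −0.01 to 0.04 and from −0.03 to 0.03. Kcn counts of unadjusted p under 0.05 then ran from 3 to 7, 2 to 6 and 3 to 7. The shares of all tested probes ran from 4.81% to 7.14%, 4.52% to 6.71% and 5.53% to 6.76%. The smallest Kcn adjusted p ran from 0.468 to 0.957, 0.464 to 1 and 0.531 to 0.821. With no filter, 11, 9 and 12 of 86 Kcn probes had an unadjusted p under 0.05, against 5.57%, 5.6% and 5.9% of all probes. Over the 24 named probes, 1449 alternative differences were computed, of which 68 had another sign, 1420 moved by less than 1 SD and 0 passed the test. With the replicate block, the medians did not move, 0 probes were called, and the smallest Kcn adjusted p were 0.759, 0.716 and 0.673. Hearts with the same number gave r of −0.27 to 0.33 (12 pairs, median −0.0274, 2 of them over 0.1). Pairs with other numbers gave −0.396 to 0.284 (36 pairs, median 0.0209, 11 of them over 0.1). These few pairs cannot decide whether the numbers mark a pairing.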
